A study of Mus musculus with 28 samples.

Results

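The genes described here are the mouse genes whose symbol is Zfp followed by digits alone, short for zinc finger protein. Zfp36, which encodes an mRNA decay factor with a different kind of zinc finger, was left out. Of 258 such genes with a probe on the Illumina arrays, 133 had a probe with a normalized intensity over 24 on at least 7 of the 28 arrays, and these 133 are the members, among 8389 genes that passed the same filter. The other 125 genes comprised 91 with no value over 24 on any array and 34 that passed it on 1 to 6 arrays. At the limit itself stood Zfp128, Zfp418 and Zfp940, each over 24 on exactly 7 arrays with mean intensities of 20.5, 17.7 and 18.3, while Zfp462 and Zfp78 stayed outside with 6 arrays each and mean intensities of 20.6 and 15.7. For a gene with several probes the brightest was used.

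Most Zfp genes encode C2H2 proteins, in which a row of short fingers, each folded around a zinc ion held by cysteines and histidines, reads a stretch of DNA. Many also carry a KRAB domain, which recruits the co-repressor TRIM28 and, through it, the histone methyltransferase SETDB1 and heterochromatin proteins. These KRAB proteins are known above all for silencing retroelements, and their genes lie in clusters that arose by repeated duplication. Others do different work: ZFP106 binds RNA and its loss in mice causes degeneration of motor nerves and muscle, ZFP91 is a ubiquitin ligase, ZFP598 marks collided ribosomes, and ZFP423, ZFP467 and ZFP521 act in the choice between fat and bone or other mesenchymal fates.

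The arrays measured total RNA of calf muscle, with gastrocnemius, plantaris and soleus kept as a unit, of female FVB mice aged 4 months. There were 4 groups of 7 samples: LKB1 knockout (KO) muscle at rest, KO muscle taken straight after 15 min of contraction driven in situ through the sciatic nerve, and the same 2 states in wild-type (WT) muscle. LKB1 (gene Stk11) phosphorylates and switches on AMPK and related kinases, and the knockout was restricted to skeletal muscle. The sources used here name neither the promoter that drove the deletion nor where the Stk11 probe lies relative to the deleted part. Cells other than muscle fibres would be expected to keep the gene. The labels do not say whether samples with the same number came from the same animal. Where nothing says that samples came from separate animals, p-values measure only the spread between these samples.

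Stk11 was low in every KO sample. At rest its log2 intensity was 8.64, 8.56, 9.32, 9.22, 8.67, 9.05 and 9.24 in KO muscle, against 10.50, 10.26, 10.64, 10.12, 10.10, 10.38 and 10.25 in WT muscle. The difference was -1.36 (SE 0.12, limma adjusted p = 1.08e-07), or 38.9% of the WT level, and after contraction it was -1.48 (SE 0.12, limma adjusted p = 1.68e-08), or 35.9%. The groups did not overlap in either state, with an exact two-sided permutation p of 0.000583, the smallest that 3432 orders of 7 against 7 allow. Here and below, log2 intensity means log2 of the authors' normalized intensity after normexp background correction with an offset of 50, which makes folds of dim genes smaller than those of the intensities themselves.

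Skeletal muscle markers stood between 14.1 and 14.6 on average in every sample (11 of 12 listed genes measured). In 5 samples the mean of 9 lymphocyte markers lay between 8.60 and 9.88, against at most 8.28 elsewhere (KO rest 4, KO contracted 5, WT rest 4 and 5, WT contracted 7). In 3 samples the mean of 8 slow-fibre markers lay between 10.3 and 11.4, against at least 12.0 elsewhere (KO rest 4, KO contracted 4, WT contracted 4). Of 8 macrophage markers, 1 rose in KO muscle at rest and 2 after contraction, with medians of 0.47 and 0.54 on the log2 scale. Their sample means ran from 8.22 to 9.34 in KO rest, 7.87 to 8.64 in WT rest, 8.26 to 9.44 in KO contracted and 7.79 to 8.78 in WT contracted. Of 9 fibroblast markers, 0 passed limma's test at rest (4 at an unadjusted p under 0.05) and 2 rose after contraction, with medians of 0.37 and 0.50. Endothelial markers had negative medians, -0.21 at rest and -0.17 after contraction, and 0 of 9 passed in either state. Their sample means ran from 8.14 to 9.15 in KO rest, 8.74 to 9.14 in WT rest, 8.29 to 9.29 in KO contracted and 8.75 to 9.11 in WT contracted. The part of these cells in the results below was not tested, and in such bulk RNA fewer cells of a type and less RNA per cell cannot be told apart.

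The Zfp genes were dim. The median member had a mean intensity of 87.2, against 198 for all genes tested, and members ran from 17.7 (Zfp418) to 1537 (Zfp3). On the 7 WT resting arrays whose detection p-values were used, 87 members were detected (p under 0.05) on all 7, 45 on 1 to 6, and Zfp296 on none. The highest mean intensities belonged to Zfp3, Zfp943 (1387), Zfp787 (1317), Zfp637 (1162) and Zfp46 (1116), and the lowest to Zfp418, Zfp526 (17.8), Zfp940, Zfp82 (19.5) and Zfp446 (19.8), but probes differ in brightness for equal amounts of RNA, so this is no order of transcript levels. The SD within groups was 0.21 on the log2 scale for the median member, against 0.25 for the median gene, on a scale whose offset narrows the spread of dim genes, and the difference was not tested. The standard error of a difference between groups had a median of 0.115 for members and 0.133 for all genes.

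Members were spread over 19 chromosomes, with 33 on chromosome 7 and 15 on chromosome 17. All 133 matched a gene of the same symbol in RefSeq (assembly GRCm38.p6). Linking members whose starts were at most 1 Mb apart gave 26 clusters that held 82 members, the largest with 6, while 51 members stood alone. Promoter sequences, 250 bases before to 50 after the start, were found in RefSeq for 105 members. Read on both strands, GGGCGG, the box bound by SP1 and its relatives, was in 54.3% of these, against 35.9% of 27025 promoters of all genes. CCAAT, the box bound by NF-Y, was in 50.5% against 37.9%, and TATAAA in 7.62% against 14.2%. ACTACAATT, the start of a longer element bound by ZNF143 in human cells, was in 4.76% of member promoters (Zfp58, Zfp128, Zfp180, Zfp692 and Zfp933) against 0.433%. TGACGTCA, the cyclic AMP response element, was in 1.9% (Zfp335 and Zfp523) against 1.88%, and the palindrome CTCGCGAG in 1.9% (Zfp326 and Zfp414) against 0.958%. Member promoters had a median GC content of 57.7% and a median CpG observed-to-expected ratio of 0.706, against 52.7% and 0.389. The members had passed the filter on intensity, while the 27025 promoters were not limited to genes that did. The part of this in the differences above was not tested. These matches describe letters in the windows and say nothing of what binds there.

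At rest, few Zfp genes differed between genotypes. Of the 133 members, 3 passed the test (2.26%), against 3.75% of all genes (limma, adjusted p under 0.05 over 8389 genes; 1.82% higher and 1.93% lower). Zfp82 rose in KO muscle, and Zfp869 and Zfp710 fell. Zfp82 met the filter on low values only through the KO resting samples, the group in which it was high, so its place among the 3 is no support for a difference of the members. At an unadjusted p under 0.05 there were 29 members (21.8%), against 21.8% of all genes. The median difference was -0.01 for members and -0.01 for all genes, with 64 members above 0 and 69 below (48.7% of all genes above 0), between -1.09 and 0.57. No member had groups without overlap, against 0.954% of all genes. The count rested on single samples: it was 1 without KO rest 1, 2 or 5 or without WT rest 3, and 7 without KO rest 7. Without the 5 samples high in lymphocyte markers it was 5.

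After contraction, 6 members (4.51%) passed the test, against 8.87% of all genes, and all 6 fell in KO muscle: Zfp869, Zfp710, Zfp467, Zfp251, Zfp41 and Zfp3. Calls among all genes were 4.54% higher and 4.33% lower. At an unadjusted p under 0.05 there were 28 members (21.1%), against 26.3% of all genes. The median difference was -0.04 for members and -0.01 for all genes, with 54 members above 0 and 79 below (47.6% of all genes above 0), between -1.30 and 0.58. No member had groups without overlap, against 1.16% of all genes. The count was 16 (2 higher, 14 lower) without KO contracted 7, 3 without WT contracted 1 or 2, and 3 without the 3 samples low in slow-fibre markers. Calls over all 8389 genes also moved, from 744 to 1702 without KO contracted 7. They were 496 and 487 without WT contracted 1 and 2, and 512 without the 3 samples low in slow-fibre markers. These all-gene calls were not split by direction.

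**Figure D1:**
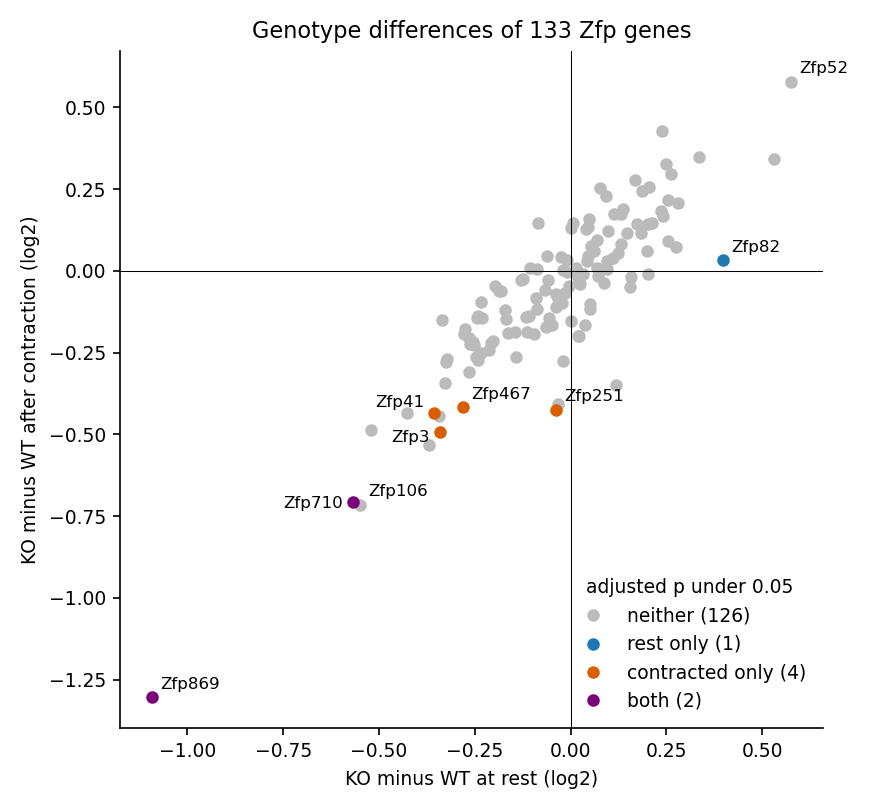
Difference between KO and WT muscle (log2) at rest on the horizontal axis and after contraction on the vertical axis, with a point for each of the 133 Zfp genes, coloured by the state in which its adjusted p was under 0.05. Most points lie within 0.5 of 0 on both axes, Zfp869 stands alone at -1.09 and -1.30, and Zfp82 differs only along the horizontal axis.

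Zfp869 had the largest fall of any member in both states. Its promoter, read from the RefSeq table of GRCm38.p6 (chr8:69716853-69717152, minus strand), is shown because the gene leads both comparisons. The 4 runs in capitals are CCAAT boxes.
Zfp869: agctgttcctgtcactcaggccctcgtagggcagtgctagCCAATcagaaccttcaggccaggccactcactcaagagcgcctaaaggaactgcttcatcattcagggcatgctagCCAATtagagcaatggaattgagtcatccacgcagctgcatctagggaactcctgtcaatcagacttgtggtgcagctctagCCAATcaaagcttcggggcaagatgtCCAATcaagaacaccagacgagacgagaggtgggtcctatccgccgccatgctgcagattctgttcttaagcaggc
At rest its log2 intensity had a minimum, median and maximum of 6.61, 7.02 and 8.47 in KO muscle, against 8.06, 8.49 and 8.65 in WT muscle. After contraction the values were 6.63, 6.78 and 8.48 in KO muscle, against 8.38, 8.57 and 8.68 in WT muscle. The KO groups were split rather than shifted: numbers 1 and 6 were at or near the WT level (8.47 and 8.33 at rest, both within the WT range; 8.48 within it and 8.30 just below it after contraction), and the other 5 lay between 6.61 and 7.22 at rest and between 6.63 and 6.95 after contraction. The group differences were -1.09 at rest (SE 0.28, limma adjusted p = 0.028) and -1.30 after contraction (SE 0.28, limma adjusted p = 0.00517), which put the KO mean at 46.9% and 40.5% of the WT mean. The call at rest was lost without KO rest 2, 4 or 5 or WT rest 2, 3 or 6 (adjusted p up to 0.0629), and that after contraction was kept without any single sample. The SD was 0.75 and 0.79 in the KO groups, against 0.20 and 0.12 in the WT groups. Stk11 in the KO samples numbered 1 was 8.64 at rest and 8.90 after contraction, and in those numbered 6 it was 9.05 and 9.30, all below the lowest WT value of 10.10. Its nearest measured relatives on chromosome 8 were Zfp930, which differed by -0.18 at rest and -0.06 after contraction, and Zfp868, which differed by 0.05 and 0.13, none of them past the test.

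Zfp710, which lies on chromosome 7, fell in both states. Its promoter (chr7:80024564-80024863, plus strand, RefSeq, GRCm38.p6) is shown as that of the other gene called in both states. The run in capitals is a CCAAT box on the opposite strand.
Zfp710: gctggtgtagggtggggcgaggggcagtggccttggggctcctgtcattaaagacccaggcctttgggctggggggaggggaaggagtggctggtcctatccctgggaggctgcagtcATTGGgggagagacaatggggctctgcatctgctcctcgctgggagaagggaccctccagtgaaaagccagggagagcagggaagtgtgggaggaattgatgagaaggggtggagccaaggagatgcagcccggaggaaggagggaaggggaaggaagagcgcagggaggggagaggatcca
At rest the minimum, median and maximum log2 intensity were 7.68, 8.10 and 8.54 in KO muscle, against 8.25, 8.69 and 9.25 in WT muscle. After contraction they were 7.73, 7.95 and 8.36 in KO muscle, against 8.28, 8.71 and 9.06 in WT muscle. The groups overlapped in both states, and the KO samples were shifted together rather than split. The differences were -0.57 (SE 0.16, limma adjusted p = 0.0398) at rest and -0.71 (SE 0.16, limma adjusted p = 0.00628) after contraction, or 67.5% and 61.3% of the WT mean. The call at rest was lost without KO rest 1, 2, 3 or 5 or WT rest 1, 3, 6 or 7 (adjusted p up to 0.107), and that after contraction was kept without any single sample. Zfp592, the other member of its cluster, differed by -0.33 at rest and -0.28 after contraction (unadjusted p = 0.0133 and 0.0315; limma adjusted p = 0.128 and 0.146) and was not called.

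Zfp82, whose human counterpart carries a KRAB domain, was the member that rose. Its promoter (chr7:30072774-30073073, minus strand, RefSeq, GRCm38.p6) is shown beside that of Zfp710 because the direction differed. The capitals mark a GGGCGG box.
Zfp82: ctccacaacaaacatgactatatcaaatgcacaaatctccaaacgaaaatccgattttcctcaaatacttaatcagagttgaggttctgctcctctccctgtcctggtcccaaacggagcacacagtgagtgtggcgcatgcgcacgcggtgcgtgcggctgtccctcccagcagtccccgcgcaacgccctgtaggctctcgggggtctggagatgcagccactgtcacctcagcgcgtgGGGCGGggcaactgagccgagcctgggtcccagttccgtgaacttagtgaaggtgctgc
At rest its minimum, median and maximum log2 intensity were 6.68, 6.80 and 6.94 in KO muscle, against 6.06, 6.43 and 6.72 in WT muscle, with 1 WT sample inside the KO range. The difference was 0.40 (SE 0.10, limma adjusted p = 0.0199), and the adjusted p was 0.0528 without KO rest 1. The gene was near the limit of detection: its intensity passed 24 in 7 of 7 KO and 1 of 7 WT resting samples, so the size of the difference at rest is uncertain. After contraction it passed 24 in 2 of 7 KO and 2 of 7 WT samples, the log2 medians were 6.59 in KO and 6.52 in WT muscle, and the difference was 0.03 (SE 0.10, limma adjusted p = 0.863). The 5 members that share its cluster (Zfp30, Zfp790, Zfp940, Zfp420 and Zfp27) differed by -0.14 to 0.25 at rest, and none passed the test.

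The 4 remaining genes called after contraction differed by less. Zfp467, which promotes fat cell formation from mouse marrow stromal cells, had a minimum, median and maximum log2 intensity of 6.71, 6.88 and 7.37 in KO muscle, against 7.13, 7.40 and 7.60 in WT muscle. Its difference was -0.42 (SE 0.10, limma adjusted p = 0.0128) after contraction and -0.28 at rest, where it was not called. KO samples 7 (7.37) and 6 (7.13) reached the lowest WT value of 7.13, and the other 5 lay below it. Of its 4 neighbours in a cluster on chromosome 6, Zfp282 differed by -0.52 at rest and -0.49 after contraction (unadjusted p = 0.0148 and 0.022), and Zfp398, Zfp212 and Zfp956 lay between -0.19 and 0.10 in both states.

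Zfp251 and Zfp41 lie in a cluster with Zfp623 on chromosome 15. Zfp251 had a minimum, median and maximum of 8.82, 8.90 and 9.32 in KO contracted muscle, against 9.06, 9.43 and 9.62 in WT contracted muscle, a difference of -0.42 (SE 0.12, limma adjusted p = 0.0208). The call was lost without WT contracted 1 or 2 (adjusted p up to 0.0513). At rest the groups lay on top of each other, with medians of 8.99 in KO and 9.01 in WT muscle and a difference of -0.04. Zfp41 had 6.80, 6.94 and 7.29 in KO contracted muscle, against 7.19, 7.39 and 7.69 in WT contracted muscle. Its difference was -0.44 (SE 0.13, limma adjusted p = 0.0385), but its second, dimmer probe gave -0.14 (unadjusted p = 0.33), and its call was lost without KO contracted 1, 2, 3, 4 or 5 or WT contracted 1, 2, 3, 5 or 6 (adjusted p up to 0.0865). Zfp623 differed by 0.28 after contraction and was not called.

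Zfp3 had a minimum, median and maximum of 9.89, 10.32 and 11.00 in KO contracted muscle, against 10.55, 10.77 and 11.19 in WT contracted muscle. KO sample 7 was the highest of its group and within the WT range, and the other 6 KO samples were below every WT sample. The difference was -0.49 (SE 0.16, limma adjusted p = 0.0471) after contraction and -0.34 (limma adjusted p = 0.199) at rest. The call was lost when any of 19 of the 28 samples was left out, among them 6 of the 7 KO contracted samples, with adjusted p up to 0.109.

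**Figure D2:**
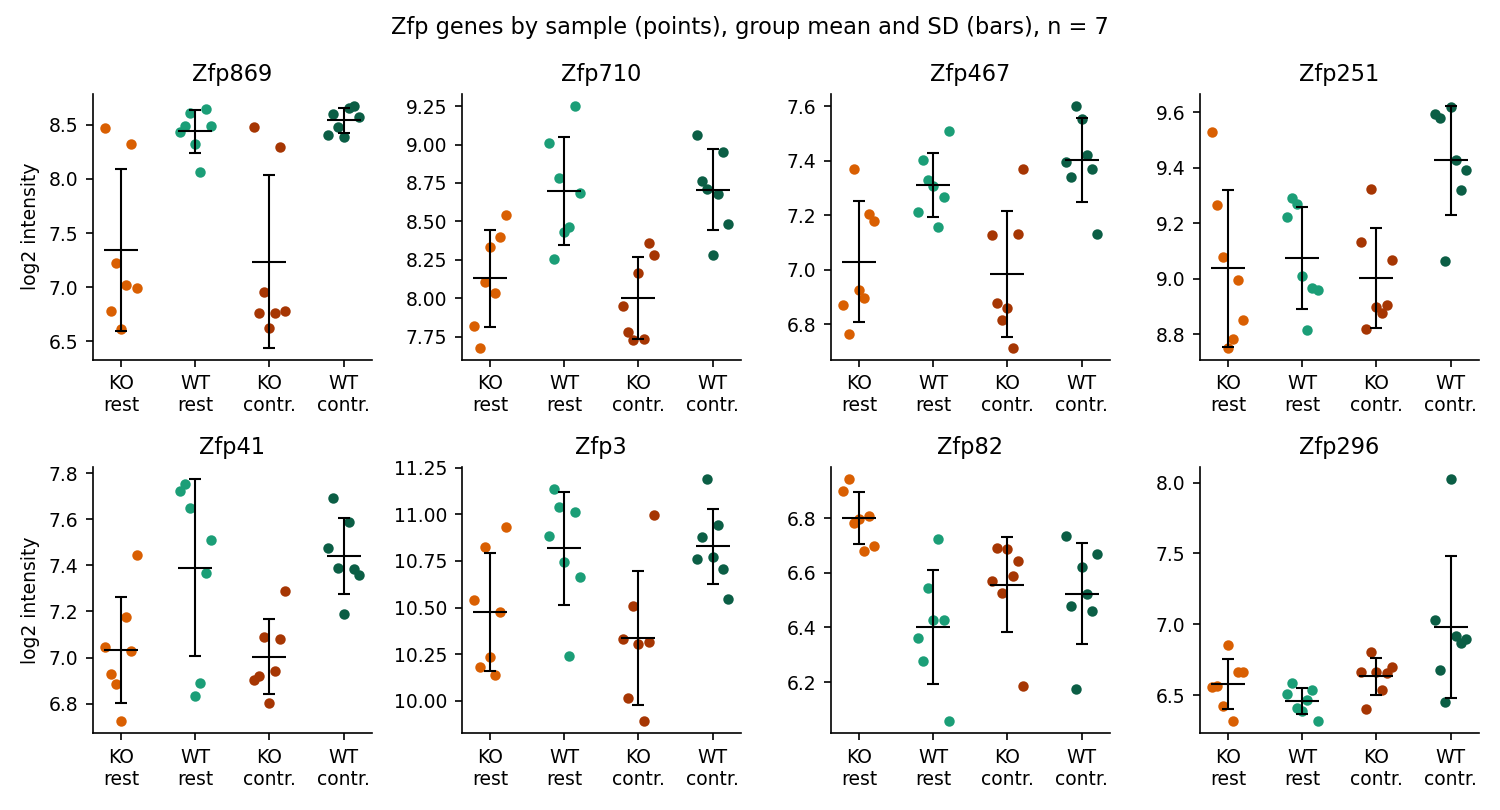
Log2 intensity of 8 Zfp genes in each of the 28 samples (points), with the group mean and SD (bars, n = 7 per group), KO beside WT at rest and after contraction. Each panel has its own vertical scale. In Zfp869 2 of 7 KO samples sit at or near the WT level in both states, in Zfp82 only the resting groups are apart, and in Zfp296 a WT contracted sample stands at 8.02.

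Among members with an adjusted p between 0.05 and 0.1, differences of both signs were found. At rest Zfp235 differed by 0.24 (limma adjusted p = 0.0584), Zfp90, a KRAB repressor, by 0.33 (limma adjusted p = 0.0907) and Zfp641 by 0.53 (limma adjusted p = 0.0942). Zfp235 was near the limit of detection, with a mean intensity of 23.6 and detection on 2 of 7 WT resting arrays. In KO resting muscle its intensities ran from 19.5 to 53.0, so the size of its difference is uncertain. Zfp90 had a minimum, median and maximum of 7.06, 7.34 and 7.59 in KO resting muscle, against 6.63, 7.00 and 7.28 in WT resting muscle. After contraction Zfp90 again had a positive difference, 0.35 (limma adjusted p = 0.0511), as did Zfp202 (0.26, limma adjusted p = 0.0784) and Zfp747 (0.33, limma adjusted p = 0.0864), while Zfp637 (-0.53, limma adjusted p = 0.0665), Zfp106 and Zfp768 (-0.41, limma adjusted p = 0.0976) had negative ones. Zfp202, Zfp637, Zfp641 and Zfp747 are given here after their values were seen. Zfp106, singled out after its values were seen, had differences close to those of Zfp710, at -0.55 and -0.71 (limma adjusted p = 0.245 and 0.0963). Its groups were wide: at rest it averaged 8.64 ± 0.46 in KO muscle and 9.19 ± 0.70 in WT muscle (SD, n = 7 each). Zfp296, which takes part in reprogramming to pluripotency in mouse cells, was over 24 in 3 of 7 KO and 0 of 7 WT resting samples (limma adjusted p = 0.657), and after contraction it differed by -0.35 (SE 0.14, limma adjusted p = 0.12).

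Some members with known roles are given next, picked for those roles with the values already known, and none passed the test. Zfp91 differed by -0.43 at rest and -0.43 after contraction, Zfp598 by 0.12 and 0.06, and Zfp207, a mitotic spindle protein, by 0.13 and 0.08. Zfp423, a regulator of fat cell commitment, differed by 0.13 and 0.17, and its close relative Zfp521 by -0.25 and -0.26. Zfp809, a KRAB protein that represses murine leukaemia virus sequences in mouse embryonic stem cells through TRIM28, differed by -0.06 and 0.05.

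Contraction left no member past the test in either genotype. This fit took the samples of the 2 states as independent. Same-numbered KO samples correlated across the states (r from 0.37 to 0.85), which can make its p-values for contraction in KO muscle too large. A fit with a block for the sample number also called no member. In KO muscle 0 of 133 members were called by limma, against 0.0119% of all genes, which is 1 gene. At an unadjusted p under 0.05 there was 1 member (0.752%), against 2.03% of all genes. The median difference between contracted and resting samples was -0.03 for members and -0.01 for all genes, with 40 members above 0 and 93 below (46.5% of all genes above 0). In WT muscle 0 members and 0 genes were called by limma. At an unadjusted p under 0.05 there were 4 members (3.01%), against 1.06% of all genes, and the medians were -0.0045 for members and -0.00039 for all genes, with 63 members above 0 and 70 below (49.8% of all genes above 0). No member had groups without overlap in either genotype, against 0% of all genes in KO and 0.0358% in WT muscle.

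The largest contraction difference belonged to Zfp296 in WT muscle. Its promoter (chr7:19577037-19577336, plus strand, RefSeq, GRCm38.p6) is shown for that reason, with 3 GGGCGG boxes in capitals, of which CCGCCC is read on the opposite strand.
Zfp296: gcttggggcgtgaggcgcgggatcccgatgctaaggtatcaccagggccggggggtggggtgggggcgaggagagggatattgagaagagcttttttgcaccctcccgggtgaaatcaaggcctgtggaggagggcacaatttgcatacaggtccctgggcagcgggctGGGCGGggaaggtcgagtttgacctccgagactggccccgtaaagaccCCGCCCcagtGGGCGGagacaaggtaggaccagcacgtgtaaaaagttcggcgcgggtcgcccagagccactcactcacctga
The minimum, median and maximum log2 intensity in WT muscle were 6.45, 6.90 and 8.02 in contracted samples, against 6.32, 6.47 and 6.59 in resting samples. Intensity passed 24 in 6 of 7 contracted and 0 of 7 resting WT samples, so the rest level is only a bound: the contracted mean was at least 1.26-fold higher, with each resting sample set to the lowest signal over 24 on its array. The fitted difference was 0.52 (SE 0.14, unadjusted p = 0.0012, limma adjusted p = 1.00), and 0.35 without WT contracted 4, the sample at 8.02. The bound includes that sample and was not computed without it. In KO muscle the same minimum, median and maximum were 6.40, 6.66 and 6.81 in contracted samples, against 6.32, 6.57 and 6.85 in resting samples, a difference of 0.05.

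Zfp251 had 9.06, 9.43 and 9.62 in WT contracted samples, against 8.81, 9.01 and 9.29 in WT resting samples, a difference of 0.35 (unadjusted p = 0.00525). In KO muscle its difference was -0.03. Zfp748 differed by -0.20 and Zfp94 by -0.21 in WT muscle (unadjusted p = 0.0174 and 0.0369), and by -0.15 each in KO muscle. In KO muscle the smallest unadjusted p was that of Zfp82, with a minimum, median and maximum of 6.19, 6.59 and 6.69 in contracted samples, against 6.68, 6.80 and 6.94 in resting samples. Its difference was -0.25 (unadjusted p = 0.0167), while in WT muscle it was 0.12. Zfp82 met the filter on low values only through the KO resting samples, the reference here, so this fall is no support for a contraction response. Zfp608 differed by 0.28 and Zfp691 by -0.22 in KO muscle, and Zfp768 by 0.32 in WT muscle. Zfp869 differed by -0.11 in KO and 0.10 in WT muscle. All limma adjusted p-values of these genes were 1.00.

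**Figure D3:**
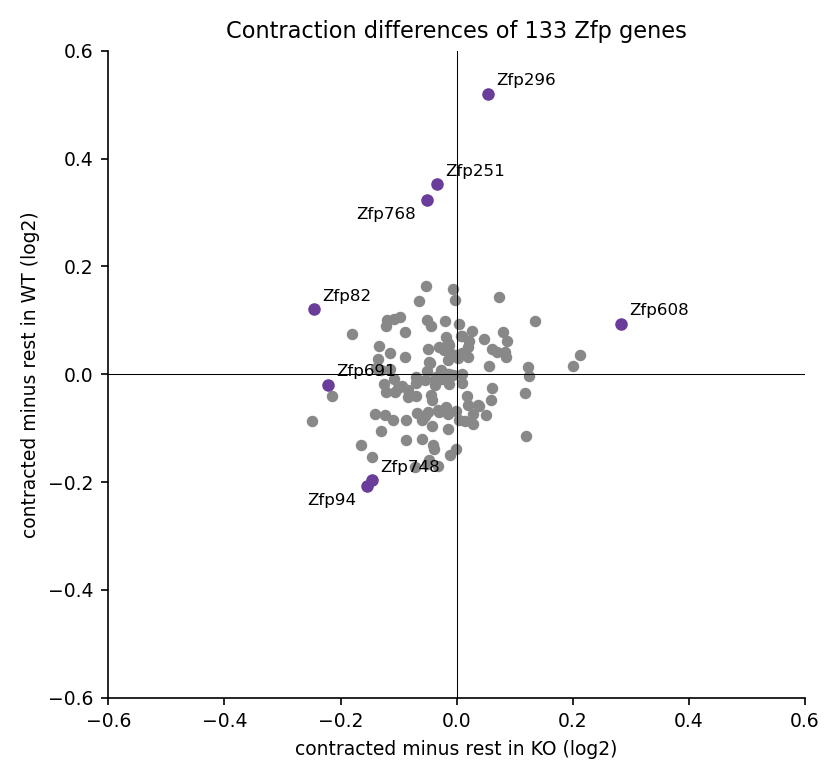
Difference between contracted and resting muscle (log2) in KO on the horizontal axis and in WT on the vertical axis, with a point for each of the 133 Zfp genes and the named genes in purple. The points form a cloud around 0, with Zfp296 at 0.52 and Zfp251 at 0.35 standing above it on the WT axis and Zfp608 at 0.28 to its right on the KO axis.

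The difference between the contraction responses, KO minus WT, was called by limma for 0 members and 0 genes. At an unadjusted p under 0.05 there were 3 members (2.26%), against 0.62% of all genes, and all 3 were negative, against 0.25% of all genes. Zfp251 differed by -0.39 (SE 0.16, unadjusted p = 0.0262) and Zfp82 by -0.37 (SE 0.14, unadjusted p = 0.012). Zfp82 met the filter on low values only through the KO resting samples, the group in which it was high. Its place among the 3 is thus no support for a difference of the members. Zfp296 had a fitted value of -0.47, or -0.29 without WT contracted 4, which rests on WT resting samples of which 0 of 7 passed 24 and so gives no exact size. Zfp768 gave -0.37, Zfp27 -0.22 and Zfp869 -0.21, with limma adjusted p of 1.00 for all 6. The differences described above share groups of samples with this one and with each other.

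KO samples with the same number were alike across the 2 states. For each member, the mean absolute difference between KO contracted and KO resting samples of the same number was set against that between samples of different numbers. It was smaller within a number for 120 of 133 members (90.2%) in KO muscle, against 90.8% of all genes, and for 73 members (54.9%) in WT muscle, against 59.5% of all genes. Zfp869 showed it most: same-numbered KO samples differed by 0.11 and others by 0.86. Zfp52 had 0.17 against 0.73, Zfp472 0.15 against 0.54, Zfp672 0.13 against 0.51 and Zfp282 0.19 against 0.50. These 5 were singled out after their values were seen. The KO values of the 2 states are thus not independent of each other.

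Zfp52 is an example with the opposite direction. Its minimum, median and maximum log2 intensity were 7.00, 7.66 and 8.91 in KO muscle at rest, against 7.04, 7.21 and 7.36 in WT muscle at rest. After contraction they were 6.87, 7.85 and 8.60 in KO muscle, against 6.57, 7.13 and 7.60 in WT muscle. KO sample 1 had 8.91 at rest and 8.60 after contraction, KO sample 3 had 8.23 and 8.01, KO sample 2 had 7.27 and 7.22, and KO sample 5 had 7.00 and 6.87. KO samples 1, 3, 4 and 6 were above every WT sample in both states, and samples 2 and 5 lay within the WT range or below it. The differences were 0.57 at rest and 0.58 after contraction (unadjusted p = 0.0218 and 0.0209), and neither was called. Its neighbours on chromosome 17, Zfp160, Zfp943 and Zfp946, differed by -0.20 to 0.21 at rest. Zfp472 ran from 6.55 in KO sample 1 to 7.93 in KO sample 2 at rest, and the same 2 samples had 6.53 and 7.87 after contraction.

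**Figure D4:**
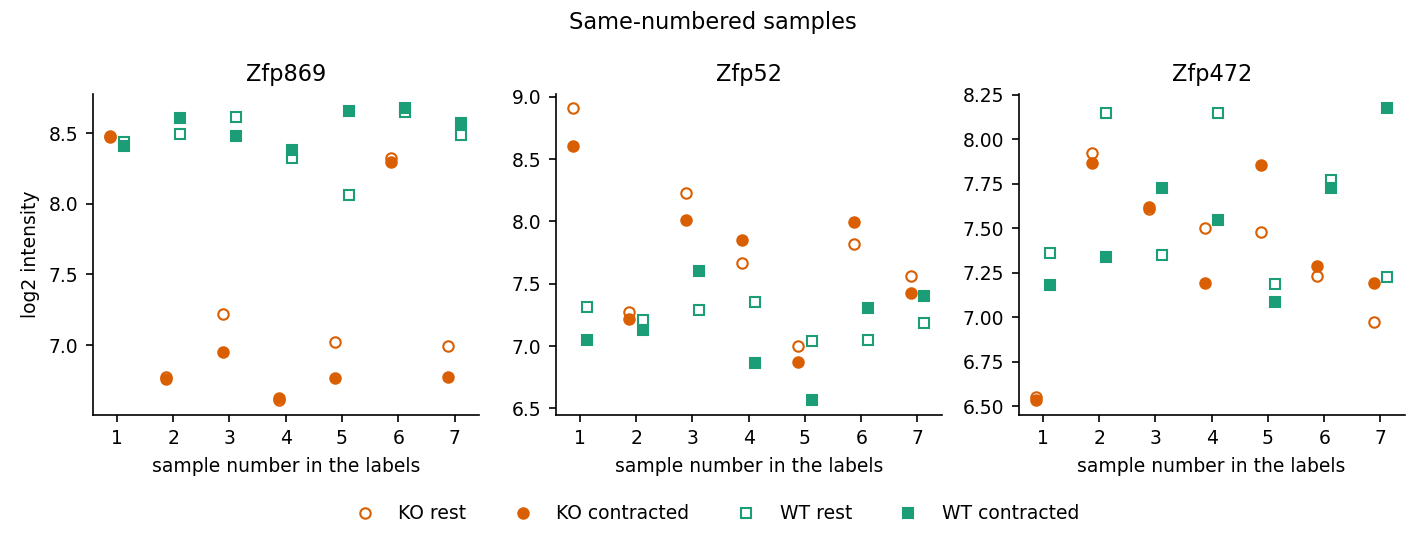
Log2 intensity of Zfp869, Zfp52 and Zfp472 against the sample number in the labels, with circles for KO and squares for WT, open at rest and filled after contraction. In KO muscle the open and filled circles of a number lie close together while the numbers differ, and Zfp869 is high only in KO numbers 1 and 6.

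The machinery through which KRAB proteins act was measured beside them. Of 42 listed co-repressor and heterochromatin genes, 25 passed the filter. At rest 0 of 25 were called by limma, against 3.75% of all genes, and the median was 0.03 on the log2 scale. An unadjusted p under 0.05 was found for 5 of 25, against 21.8% of all genes. After contraction 7 of 25 had an unadjusted p under 0.05, against 26.3% of all genes, and the median was 0.10. By limma 1 gene rose in KO muscle, where 8.87% of all genes were called. That gene was Ehmt2, which encodes the histone methyltransferase G9a, with a minimum, median and maximum of 8.72, 9.03 and 9.15 in KO contracted muscle, against 8.47, 8.69 and 8.87 in WT contracted muscle. Its difference was 0.29 (SE 0.09, limma adjusted p = 0.0488). Unlike the calls of members, this call was not checked by leaving out samples or by other processing. Trim28 differed by -0.04 at rest and -0.15 after contraction, and Setdb1 by 0.16 and 0.10, none past the test. Between contracted and resting muscle limma called 0 of the 25 in KO and 0 in WT muscle. At an unadjusted p under 0.05 there were 1 and 0, against 2.03% and 1.06% of all genes.

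Other zinc finger classes, chosen by symbol, were set beside the members. Between KO and WT muscle limma called 0 of 12 Zbtb genes in either state (2 at an unadjusted p under 0.05 in each) and 0 of 10 Klf genes (0 at rest and 2 after contraction at an unadjusted p under 0.05). Of 8 Zkscan and Zscan genes, 0 were called at rest (1 at an unadjusted p under 0.05) and 1 rose after contraction (1 at an unadjusted p under 0.05). Of 28 genes with other zinc-binding domains, 0 were called at rest (9 at an unadjusted p under 0.05) and 1 rose after contraction (7 at an unadjusted p under 0.05). The corresponding counts called for the members were 3 of 133 at rest and 6 of 133 after contraction, and those for all genes 3.75% and 8.87%. At an unadjusted p under 0.05 they were 29 and 28 of 133 members, and 21.8% and 26.3% of all genes.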

How the data were processed

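Illumina bead arrays were hybridised with amplified, biotin-labelled RNA of 28 muscle samples, 7 in each of 4 groups taken from the sample titles. The deposited values are normalized intensities, made by the authors with R 3.1.2, lumi 3.0 and limma 3.1 per the submitters' processing notes, and 27.2% of them are below 0. A second deposited table gives non-normalized intensity with a detection p-value, and per the file headers only the 7 WT resting samples could be tied to labels; 21 intensity columns were not used. Mean non-normalized intensity ranged from 201 to 446 on those 7 arrays, and the number of arrays limits the precision.

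Probes over 24 on at least 7 of 28 arrays were kept (11723 of 25697), corrected by normexp (offset 50), put on the log2 scale without further normalization, and reduced to the brightest probe per gene (platform annotation; 23978 probes with 1 symbol, 1719 with none). All 28 arrays entered one limma model (lmFit, eBayes; R 4.3.3, limma 3.58.1), with 5 comparisons and Benjamini-Hochberg adjustment over 8389 genes at 0.05. KO against WT at rest was simulated over 8389 genes with independent normal noise. The fit recovered 93% of changes of 1 and 99% of changes of 2 on the log2 scale, with 17 false calls. Smaller changes were not simulated. Named genes are members past the threshold (at most 10 each way), or the 5 with the smallest p where fewer than 5 passed, with Zfp869, Zfp82 and Zfp296 always, the 5 brightest and 5 dimmest members, and called co-repressor genes; others are named as chosen after their values were seen. The members and lists were chosen with earlier results of these data known. Deviations of same-numbered samples correlated (r over 0.1) in KO muscle in all 7 pairs (r from 0.37 to 0.85). They did so in 5 of 7 pairs in WT muscle, 4 of 7 between genotypes at rest and 3 of 7 after contraction. Of the 7 KO contracted samples, 4 correlated best with the KO resting sample of their own number. The data thus pair the KO samples only in part. Alternatives covered the offset, a floor without normexp, cyclic loess, the filter, the mean of all probes, the replicate block, a model of the 14 samples alone, and leaving out each sample; leaving out the 5 samples high in lymphocyte markers or the 3 low in slow-fibre markers was added after seeing the data. Protein domains and finger counts were not analysed here.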

Additional observations from a re-analysis of the deposited data

Results flagged for a closer look

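In 3 groups of 7 samples of the named genes, the highest or lowest sample stood apart from the others by more than Dixon's critical share of the group's range. Zfp296 in WT contracted sample 4 had a log2 intensity of 8.02, the nearest sample being at 7.03 (ratio 0.632). This sample is also among the 3 low in slow-fibre markers, and the part of that in the value was not tested. Zfp82 in KO contracted sample 7 had 6.19, with the nearest at 6.52 (ratio 0.67). Stk11 in WT contracted sample 4 had 10.10, with the nearest at 10.47 (ratio 0.857), which was still above every KO sample. Of 68 groups tested over 17 named genes these were 3, and over all 133 members 30 of 532 groups (5.64%) had such a sample, where chance flags about 1 in 20.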

How the results depend on the processing

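The count of members called at rest, 3 in the analysis above, was 1 without a filter on dim probes (16593 genes tested), 1 with the replicate block, 5 when the 5 samples high in lymphocyte markers were dropped, and 1 to 7 over the 28 fits that left out 1 sample. After contraction the count of 6 became 2 with the replicate block (Zfp869 and Zfp710), 3 without the 3 samples low in slow-fibre markers, and 3 to 16 with 1 sample left out. Between genotypes the samples share only a number, so that fit pairs nothing known to be paired. Over all genes, calls numbered 315 at rest. They were 207 without the filter, 243 with the block, 340 without the lymphocyte-high samples and 109 to 676 with 1 sample left out. After contraction they numbered 744, against 149 with the block, 512 without the samples low in slow-fibre markers and 409 to 1702 with 1 sample left out. Zfp869 and Zfp710 after contraction stayed under 0.05 in all 38 alternatives (highest adjusted p 0.0449 and 0.0494). At rest Zfp869 lost its call in 9 of 38 (highest 0.0662), Zfp710 in 12 of 38 (highest 0.107) and Zfp82 in 2 of 37 (highest 0.0702). After contraction Zfp467 lost it in 2, Zfp251 in 4, Zfp41 in 14 and Zfp3 in 26 of 38. Signs turned for uncalled values only: Zfp82 after contraction, KO against WT, ranged from -0.026 (without WT contracted 3) to 0.094 with 1 sample left out, Zfp869 under contraction in KO ranged from -0.32 to 0.079 (above 0 without KO rest 1 or 6), and in WT it was -0.000407 once the 5 lymphocyte-high samples were dropped. The causes were not tested. Medians and the counts of 0 for contraction and for the response difference kept their values within the spread. For the medians this spread was 0.10, the SD within groups of the per-sample median over the members. Member medians lay between -0.04 and -0.0045, all smaller in size than it. A median could thus change sign and still count as kept. The block, which pairs samples by number, called no member for contraction (over all genes 0 in KO and 1 in WT, against 1 and 0 without it). With a smaller offset or a floor of 10 the changes of dim genes were larger, up to -2.33 for Zfp869 after contraction. Dim signal limits these results: 45 members were detected on only some of the 7 WT resting arrays.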
